A study of Mus musculus with 16 samples.

Results

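The subunits of oxidative phosphorylation were described in mouse embryo heads at 3 stages. Their genes were taken by symbol, as all genes on the array whose name matched the Nduf accessory and core subunits of complex I, the Sdh subunits of complex II, the Uqcr subunits of complex III, the Cox subunits numbered from Cox4 to Cox8 of complex IV, or the Atp5 subunits of complex V. This gave 80 of 18193 genes, with 34 in complex I, 4 in complex II, 8 in complex III, 17 in complex IV and 17 in complex V. The choice used names alone and no measured value. One such name, Ndufa4, is counted with complex I here although its protein is now assigned to complex IV.

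Total RNA was measured on 16 one-colour arrays, with 6 from E9.5, 4 from E11.5 and 6 from E13.5, and the submitters call the arrays of a stage biological replicates. Sample titles name the embryo head and the series title the brain. The labels name no strain, genotype, sex or treatment for any of these groups, and give no share of head tissue beyond the brain. RNA of both earlier stages went through Affymetrix's one-cycle labelling kit and that of E13.5 through Ambion's MessageAmp II kit, so stage and labelling kit cannot be told apart in either comparison with E13.5.

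Oxidative phosphorylation makes ATP in the inner membrane of the mitochondrion. Complexes I and II pass electrons from NADH and succinate to ubiquinone, complex III passes them on to cytochrome c, and complex IV gives them to oxygen, while complexes I, III and IV pump protons that complex V uses to form ATP. Most subunits are encoded in the nucleus and a few in mitochondrial DNA, and several complex IV subunits exist in forms that heart and skeletal muscle, lung or testis use in place of the common one. Neurons depend heavily on this pathway, while many early embryonic cells rely more on glycolysis.

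Values are log2 of the deposited intensity, so a difference of 1 is a 2-fold difference. Each gene is represented by its brightest probe set, a group of short probes against 1 transcript, and a gene is called where limma's Benjamini-Hochberg adjusted p over all genes was under 0.05. The 16 arrays differed in several ways beside the subunit genes. The 24 poly-A spike-in probe sets, which report RNA added during preparation, stood at 8.12 ± 0.25 (SD, n = 6) at E9.5, 5.67 ± 0.15 (n = 4) at E11.5 and 5.40 ± 0.11 (n = 6) at E13.5. Their difference between E11.5 and E9.5 was -2.45 (two-sided exact permutation p = 0.00952, the smallest that 4 against 6 arrays allow; 0.0143 adjusted over 6 control tests). The Gapdh signal at the 3′ end stood above that at the 5′ end by 0.18, 0.14 and 0.04 at the 3 stages, a difference of -0.14 between E9.5 and E13.5 (two-sided exact permutation p = 0.00216, the smallest that 6 against 6 arrays allow; 0.00648 adjusted). The neuron marker list went from a mean level of 6.85 at E9.5 to 9.81 and 10.67 at the later stages, and all of its 5 markers were called higher at E13.5 than at E9.5. The 10 skeletal muscle markers had a mean level of 4.42, 4.40 and 8.18 at the 3 stages, and 9 of them rose from E11.5 to E13.5. The 5 connective tissue markers had mean levels of 7.64, 9.47 and 11.65, and the 5 measured erythroid markers had mean levels of 10.13, 10.40 and 8.97. Mean levels of the neural progenitor, macrophage and surface ectoderm lists were 9.36, 10.32 and 9.61, then 4.09, 5.97 and 5.45, then 7.09, 6.29 and 7.23. Markers within a list did not all move together. At E13.5 against E9.5, 2 of 5 progenitor markers were called higher and 3 lower (median -0.57). Surface ectoderm had 3 higher and 2 lower, and macrophage 4 higher and 0 lower. Of the 5 erythroid markers, 0 were higher, 2 lower and 3 not called (median -0.33). The part of these shifts in the subunit results was not tested, and in RNA from whole tissue fewer cells of a type and less RNA per cell cannot be told apart.

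Most of the subunit genes gave a strong signal. Of the 80, 70 were above the upper quartile of intensity on all 16 arrays. The 10 that were not were Ndufb1, Ndufb4, Cox4i2, Cox6a2, Cox6b2, Cox7a1, Cox7b2, Cox7c, Cox8b and Cox8c. Ndufb4 and Cox7b2 stayed at or below the lower quartile, an intensity of 12, on all 16 arrays, where values step in whole numbers, so their calls carry little information. Cox7c encodes a common subunit of complex IV, and its probe set ran from 6.61 to 7.79.

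From E9.5 to E11.5 the subunit genes moved both ways. By E11.5, 33 of 80 were called higher and 24 lower, where 57.8% of all genes were called (31.0% higher, 26.9% lower), and the median difference was -0.02. From E11.5 to E13.5 they mostly moved one way: 47 of 80 were called higher and 12 lower, where 54.9% of all genes were called (27.9% higher, 27.0% lower), with a median difference of 0.41 where the median of all genes was near 0. From E9.5 to E13.5, 55 of 80 were called higher and 8 lower, where 61.8% of all genes were called (32.7% higher, 29.1% lower), also with a median of 0.41. With each array centred on its median the last split was 47 higher and 14 lower, the median of all genes was -0.14 and that of the subunit genes 0.27. The calls at E13.5 include Ndufb4 in both comparisons, at the dim end. The 3 comparisons share arrays, so their counts are not independent of each other. By the moderated F test, 73 of 80 differed between stages, against 75.8% of all genes.

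Most of these differences were moderate. At E13.5, 5 members were at least 2-fold above E9.5 and 8 at least 2-fold above E11.5, and 0 were 2-fold lower in either comparison. The arrays of E11.5 and E13.5 did not overlap for 58 of 80 members (43.0% of all genes), those of E9.5 and E13.5 for 51 (44.8%) and those of E9.5 and E11.5 for 50 (37.7%). The members are brighter than most genes, with 66 of 80 in the top 10% by level. No share over genes of like level was computed, so the part of brightness in these counts was not tested. The mean level over the 80 genes was 9.89 ± 0.03 (SD, n = 6) at E9.5, 9.94 ± 0.02 (n = 4) at E11.5 and 10.30 ± 0.06 (n = 6) at E13.5. One E13.5 array, from the sample titled B62E7K, was the highest of its stage for 59 of the 80 genes, with a mean over members of 10.41 against 10.24 to 10.30 on the other 5. Without it, 47 members were higher and 12 lower than at E11.5, and 55 higher and 9 lower than at E9.5. Without the E9.5 samples 13 and 15, which lay apart from the other E9.5 samples in several genes below, 55 were higher and 7 lower at E13.5 than at E9.5.

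**Figure D1:**
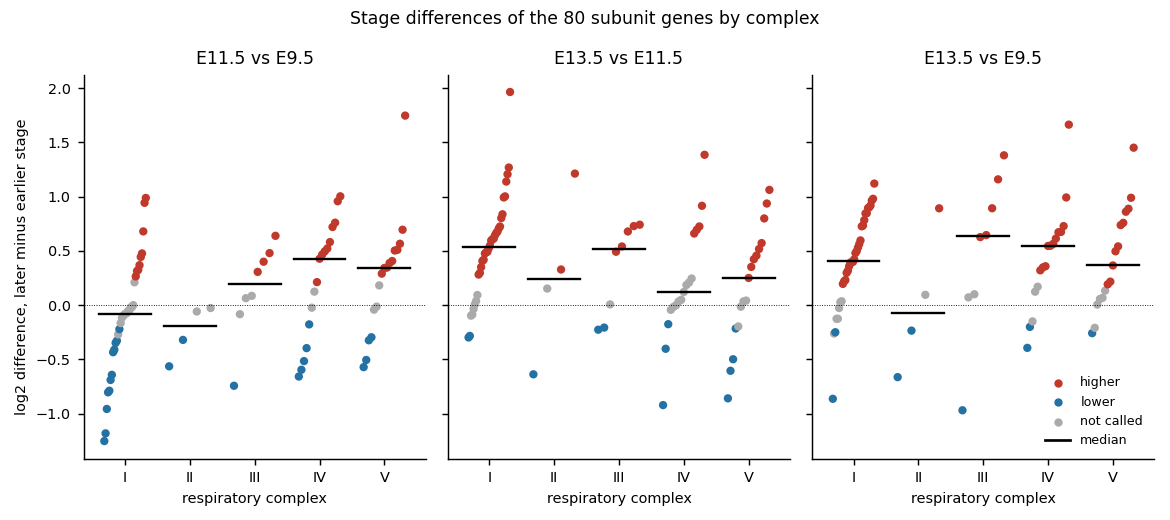
Log2 difference between stages for each of the 80 subunit genes (vertical axis, later minus earlier stage), by respiratory complex, with a panel for each pair of stages. Points are genes, red called higher, blue called lower and grey not called, and black bars are medians. The points of complex I spread on both sides of 0 at E11.5 against E9.5, with a median of -0.08, and lie mostly above 0 at E13.5 against E11.5, with a median of 0.54.

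The direction depended on the probe set for many genes. The arrays hold 163 probe sets for the 80 genes, and 35 genes have at least 2 bright ones, taken here as a mean log2 level of 9 or more. Between E9.5 and E11.5, all bright sets of a gene were called the same way for 6 of these 35 genes, 4 higher and 2 lower, and 12 genes had sets called in opposite directions. Between E11.5 and E13.5 the bright sets of 16 genes were called the same way, 14 of them higher, and 11 genes had opposite calls. Between E9.5 and E13.5 the count was 17 the same way, 15 of them higher, and 7 opposite. Over all 118 bright probe sets taken singly, 46 were higher and 35 lower at E11.5 than at E9.5, 79 higher and 21 lower at E13.5 than at E11.5, and 80 higher and 16 lower at E13.5 than at E9.5. These calls come from a separate fit of every probe set. No share over the bright probe sets of all genes was computed, so counts of bright sets here and below stand without a background. The brightest sets of 8 genes (Ndufa3, Ndufa7, Ndufa12, Ndufs8, Ndufv1, Cox5b, Cox8a and Atp5k) bear the platform's x_at suffix, which marks sets whose probes may also match other sequences. Those of Ndufa2, Ndufa13, Ndufc2, Uqcrq, Cox7c, Atp5c1, Atp5d, Atp5e, Atp5j2 and Atp5pb bear the s_at suffix, for probes shared by more than 1 transcript. Which set gives a gene's level was not tested.

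**Figure D2:**
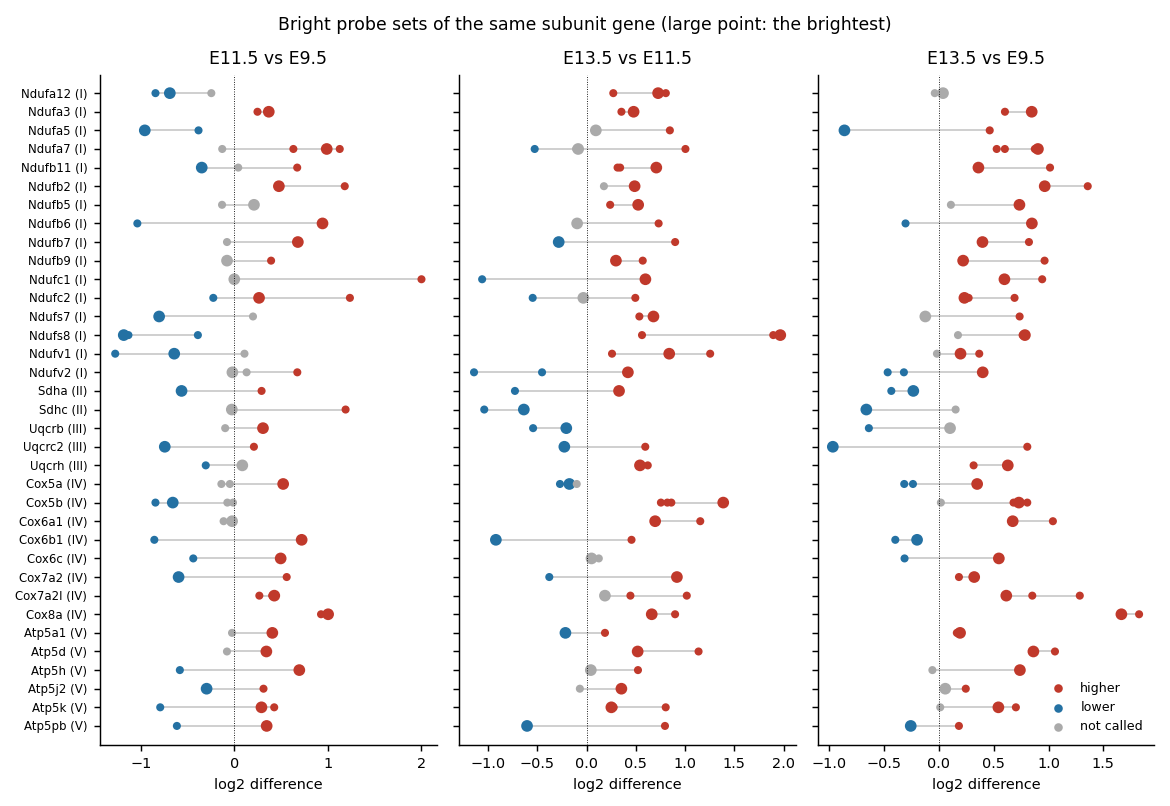
Log2 difference between stages (horizontal axis) for every bright probe set of the 35 subunit genes that have at least 2, with genes in rows and their complex in brackets. Large points are the brightest probe set of a gene, small points the others, coloured by call. At E11.5 against E9.5, 12 rows hold red and blue points together, for instance Uqcrc2 and Cox6b1, while both Cox8a points are red in all panels.

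Promoters of the genes were searched for 2 motifs known from nuclear control of mitochondrial genes, that of NRF1, a factor which binds many of them, and that of the ETS family, which includes GABPA. RefSeq promoters on GRCm38.p6, each of 300 bases around the transcription start and mostly before it, were on hand for 66 of the 80 genes. The NRF1 core GCATGCGC, on either strand, was in 9 of their 71 promoters, or 12.7%, against 2.71% of 32851 promoters of all genes. A palindromic form, the same core preceded by GC, was in 4, or 5.63% against 0.971%. The ETS motif ACTTCCGG, on either strand, was in 5, or 7.04% against 3.89%. Counted by gene, 13 of 66 (19.7%) held the NRF1 core or the ETS motif, against 7.06% of 27025 genes. No share over promoters of like base composition or genes of like level was computed, so their part in these shares was not tested. A match describes letters only and is no evidence of binding. Stretches of 100 bases are printed for 5 genes with a match, 1 from each complex and each higher at E13.5 than at E9.5, and for the muscle isoform Cox8b, which held no match in the window. Matched letters are in capitals, and each stretch reads 5′ to 3′ on the strand of its gene.
Ndufa6, chr15:82354292-82354391, minus strand: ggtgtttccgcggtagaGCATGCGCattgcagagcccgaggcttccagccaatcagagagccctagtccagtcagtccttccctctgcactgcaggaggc
Sdhb, chr4:140961171-140961270, plus strand: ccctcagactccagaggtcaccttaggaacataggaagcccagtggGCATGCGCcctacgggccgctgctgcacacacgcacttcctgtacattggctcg
Uqcr11, chr10:80406812-80406911, minus strand: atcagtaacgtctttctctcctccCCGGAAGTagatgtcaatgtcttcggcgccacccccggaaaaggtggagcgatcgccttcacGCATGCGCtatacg
Cox6a1, chr5:115349059-115349158, minus strand: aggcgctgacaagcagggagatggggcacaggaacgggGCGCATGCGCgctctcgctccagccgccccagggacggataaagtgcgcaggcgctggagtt
Atp5k, chr5:108434400-108434499, minus strand: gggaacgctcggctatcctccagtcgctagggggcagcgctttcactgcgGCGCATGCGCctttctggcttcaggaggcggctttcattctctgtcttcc
Cox8b, chr7:140900447-140900546, minus strand: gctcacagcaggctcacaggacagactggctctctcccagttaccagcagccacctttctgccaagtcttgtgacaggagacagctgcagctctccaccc
The Uqcr11 stretch holds an ETS match on the opposite strand and the NRF1 core near the start, and the Cox6a1 and Atp5k stretches hold the palindromic form. Among the genes described below, Uqcrc1 and Atp5g2 also held the palindromic form, Atp5g2 being not called higher at E13.5 than at E9.5, and Cox8a held the ETS motif at 2 positions. Ndufs8, Cox5b and Atp5e were higher at E13.5 than at E9.5 and held neither motif. Whether a match goes with a rise was not tested.

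Complex I, the NADH dehydrogenase and entry point of most electrons, rose in most of its genes between E11.5 and E13.5. Of 34, 26 rose, 2 fell and 6 were not called (27.9% of all genes rose and 27.0% fell), with a median of 0.54. Against E9.5, 26 were higher and 2 lower at E13.5 (32.7% and 29.1% of all genes), with a median of 0.41. Between E9.5 and E11.5 the complex was divided, with 9 higher, 12 lower (31.0% and 26.9% of all genes) and a median of -0.08. Over its 56 bright probe sets, 42 were called higher and 7 lower at E13.5 than at E11.5, and 18 higher and 19 lower at E11.5 than at E9.5.

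The 6 measured core subunits, most of which carry the flavin or iron-sulfur clusters, stood lower at E11.5 than at E9.5 in 3 cases and higher in 0, and 5 of the 6 rose from E11.5 to E13.5. Ndufs8, an iron-sulfur subunit encoded at chr19:3908863-3912774 on GRCm38.p6, had the largest difference of the 6 in each of the 2 intervals. Its level at E9.5 ran from 10.13 to 10.83 with a median of 10.32, the 4 E11.5 arrays read 9.28, 9.35, 9.13 and 9.25, and E13.5 ran from 11.12 to 11.45 with a median of 11.18. All E11.5 arrays lay below all E9.5 arrays, and all E13.5 arrays lay above both earlier stages. The difference was -1.18 ± 0.12 (SE; adjusted p = 6e-08) at E11.5 against E9.5 and 1.97 ± 0.12 (adjusted p = 4.2e-11) at E13.5 against E11.5. All 3 of its bright probe sets fell and then rose, by -1.18, -1.13 and -0.39 and by 1.97, 1.89 and 0.56, and 2 of the 3 were higher at E13.5 than at E9.5.

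Ndufv1, the flavin subunit that takes electrons from NADH, fell by 0.64 on the log2 scale to E11.5 (adjusted p = 6.7e-07) and rose by 0.84 to E13.5 (adjusted p = 1.8e-08). Of its 3 bright probe sets, all rose to E13.5, but the second-brightest read 0.11 in the first interval and was not called. Ndufs1, the largest iron-sulfur subunit, was at 9.70 ± 0.11, 9.54 ± 0.10 and 9.58 ± 0.04 and was called in no comparison. Ndufs3 rose by 0.99 ± 0.07 and Ndufs7 by 0.68 ± 0.12 from E11.5 to E13.5, while Ndufs7 was at 10.00 ± 0.29 at E9.5 and 9.88 ± 0.11 at E13.5 and was not called between them (adjusted p = 0.332).

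The 28 accessory subunits, which surround the core and support its assembly and stability, rose in 21 cases from E11.5 to E13.5, with 2 lower and a median of 0.51. Ndufa6, at chr15:82350139-82354291, was called in the second interval and not in the first. Its E9.5 arrays ran from 9.14 to 9.25 with a median of 9.22, the E11.5 arrays read 9.07, 9.0, 9.24 and 9.17, and the E13.5 arrays ran from 10.13 to 10.48 with a median of 10.31. The 2 earlier stages overlapped, and every E13.5 array lay above both. The rise was 1.21 ± 0.08 from E11.5 (2.31-fold, adjusted p = 9.3e-11) and 1.12 ± 0.07 from E9.5 (adjusted p = 1.4e-11), with 1 probe set for the gene.

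Other accessory subunits differed in when they changed. Ndufs5 was at 9.49 ± 0.25, fell by 0.79 to E11.5 (adjusted p = 2.2e-06) and rose by 1.27 to 9.98 ± 0.10 at E13.5 (adjusted p = 3.3e-09). Ndufv3 rose in both intervals, by 0.32 and 0.67, and stood 0.98 ± 0.08 above E9.5 at E13.5 (adjusted p = 8.3e-10). Ndufa7 rose by 0.99 to E11.5 and then differed by -0.09 (adjusted p = 0.361) on its brightest set, but its second-brightest read -0.13 and was not called in the first interval, and its bright sets gave opposite calls in the second. All 4 bright sets of Ndufa7 were higher at E13.5 than at E9.5, by 0.53 to 0.90. Ndufa9, a subunit near the ubiquinone site, differed by -0.12 in the first interval and rose by 0.61 ± 0.08 in the second.

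The 2 complex I genes that fell from E11.5 to E13.5 were Ndufb7, by 0.28 (adjusted p = 0.00995), and Ndufb8, by 0.30 (adjusted p = 0.00178). The other bright set of Ndufb7 rose by 0.90 in that interval, and the call on the brightest was lost with the E13.5 title prefix (B62 or B63) as a random block. The 2 that were lower at E13.5 than at E9.5 were Ndufb10 and Ndufa5. Ndufb10 ran from 9.42 to 10.06 at E9.5, read 8.35, 8.54, 8.42 and 8.49 at E11.5, and ran from 9.19 to 9.61 at E13.5, so that E11.5 lay below all E9.5 and E13.5 arrays. Its fall of 1.25 to E11.5 (2.38-fold, adjusted p = 4.1e-09) and its rise of 1.0 to E13.5 (adjusted p = 9.8e-08) left it lower than at E9.5, at -0.25 (adjusted p = 0.0282), a call that was lost without E9.5 sample 13 or 24 or E13.5 sample B62E6K or B63E5K (-0.18, -0.23, -0.24 and -0.20). Ndufa5 fell by 0.96 ± 0.08 to E11.5 and stood at -0.86 ± 0.07 against E9.5 at E13.5 (adjusted p = 1.9e-09), but its other bright probe set rose by 0.46 between E9.5 and E13.5, so no direction can be given for that gene over the whole span. Ndufb6 differed likewise, with 0.94 on the brightest set and -1.04 on the second between E9.5 and E11.5.

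Complex II, the succinate dehydrogenase shared with the tricarboxylic acid cycle, has 4 subunits, and they did not move together. Sdhb, its iron-sulfur subunit, encoded at chr4:140961271-140979198, ran from 9.90 to 10.15 at E9.5 with a median of 9.95, read 9.64, 9.63, 9.70 and 9.72 at E11.5, and ran from 10.85 to 10.95 at E13.5 with a median of 10.88. The stages did not overlap, with E11.5 lowest and E13.5 highest. Sdhb rose by 1.21 ± 0.07 from E11.5 to E13.5 (2.32-fold, adjusted p = 2e-11) and was 0.89 ± 0.06 above E9.5 (adjusted p = 1.1e-10).

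Sdha, the flavin subunit that binds succinate, was at 10.27 ± 0.04, 9.71 ± 0.03 and 10.04 ± 0.10. Its brightest set fell by 0.56 and then rose by 0.33, the second-brightest rose by 0.29 and then fell by 0.73, and both were lower at E13.5 than at E9.5, by -0.23 and -0.43. The first of these calls was lost with the title prefix as a random block. Sdhc, a membrane anchor, was at 9.47 ± 0.27 at E9.5, 9.45 ± 0.06 at E11.5 and 8.81 ± 0.05 at E13.5, and both of its bright sets fell from E11.5 to E13.5, by -0.64 and -1.04. Against E9.5 the brightest was lower by -0.66 (adjusted p = 4.5e-06) and the second read 0.15 and was not called. Sdhd, the other anchor, was called in no comparison, at 9.81 ± 0.07, 9.75 ± 0.11 and 9.90 ± 0.04.

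In complex III, the cytochrome bc1 complex, 5 of 8 genes rose from E11.5 to E13.5 and 2 fell (27.9% and 27.0% of all genes). The median was 0.52. At E11.5 against E9.5, 4 were higher and 1 lower (31.0% and 26.9% of all genes), with a median of 0.20. That median was -0.05 on second-brightest sets, -0.08 with the mean of all probe sets and 0.085 with the mean of bright sets. Uqcrc1, a core subunit encoded at chr9:108936648-108949641, rose at each step. Its arrays ran from 9.65 to 9.83 at E9.5 with a median of 9.77, read 10.46, 10.25, 10.46 and 10.42 at E11.5, and ran from 11.06 to 11.29 at E13.5 with a median of 11.12. No array of a later stage lay below one of an earlier stage. The rise was 0.64 ± 0.07 to E11.5 (adjusted p = 2.5e-07) and 0.74 ± 0.07 to E13.5 (adjusted p = 3.4e-08), together 1.38 ± 0.07 or 2.61-fold, and the gene has 1 probe set.

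Uqcrc2, the other core subunit, gave no single answer. Its brightest set fell from 10.85 ± 0.14 at E9.5 to 10.11 ± 0.10 and 9.88 ± 0.10, a difference of -0.97 at E13.5 (adjusted p = 5.2e-10), while its other bright set was 0.81 higher at E13.5 than at E9.5. Uqcrfs1, the Rieske iron-sulfur protein, was at 10.50 ± 0.06, 10.57 ± 0.03 and 10.58 ± 0.05 and was called in no comparison.

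Among the 5 small subunits, 4 rose from E11.5 to E13.5 and 4 were higher at E13.5 than at E9.5. Uqcrq, a ubiquinone-binding subunit, was at 9.36 ± 0.20, 9.84 ± 0.07 and 10.52 ± 0.16, with no overlap between stages, and its difference from E9.5 to E13.5 was 1.16 ± 0.09 (adjusted p = 6e-10). Its other probe sets were dim, and the second-brightest read 0.09 there and was not called. Uqcr10 rose by 0.40 and 0.49, and Uqcr11, whose promoter is printed above, differed by -0.08 in the first interval and rose by 0.73 ± 0.08 in the second. Both bright sets of Uqcrh rose from E11.5 to E13.5, and both of Uqcrb fell, the brightest by -0.21 (adjusted p = 0.0179), a call that was lost without E11.5 sample 33 (-0.17).

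**Figure D3:**
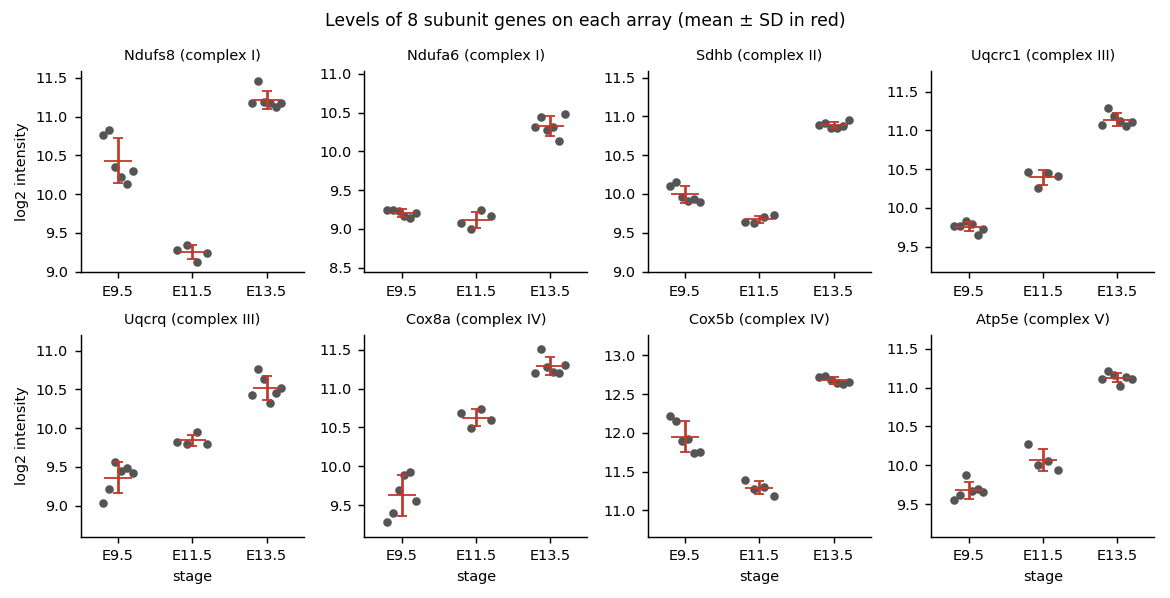
Log2 intensity (vertical axis) of 8 subunit genes on each array at E9.5 (6 arrays), E11.5 (4) and E13.5 (6), each panel with its own range. Grey points are arrays and red bars the mean ± SD. Uqcrc1, Uqcrq, Cox8a and Atp5e climb at each stage, the Ndufa6 arrays of E9.5 and E11.5 overlap, and Ndufs8, Sdhb and Cox5b are lowest at E11.5 and highest at E13.5.

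Complex IV, cytochrome c oxidase, is made of common subunits, some of which have tissue isoforms. By E11.5, 10 of its 17 genes had risen and 5 had fallen, with a median of 0.43 that fell to -0.11 on second-brightest probe sets. From E11.5 to E13.5, 5 rose, 3 fell and 9 were not called, with a median of 0.12. Against E9.5, 12 were higher and 2 lower at E13.5, with a median of 0.55. Of the 9 common subunits, 8 were higher at E13.5 than at E9.5 and 1 was lower. These 9 also held all 5 rises and 3 falls between E11.5 and E13.5, and their median there was 0.66. The tissue isoforms and Cox7a2l were not called in that interval on their brightest sets. Over the 21 bright probe sets of complex IV, 13 rose and 4 fell in the same interval, with a median of 0.66.

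Cox8a, the common form of a small membrane subunit, encoded at chr19:7215158-7217616, rose most of the 80 genes between E9.5 and E13.5. Its E9.5 arrays ran from 9.28 to 9.92 with a median of 9.62, the E11.5 arrays read 10.69, 10.49, 10.73 and 10.60, and the E13.5 arrays ran from 11.20 to 11.50 with a median of 11.25. The stages did not overlap, and the array B62E7K was the highest at 11.50. Cox8a rose by 1.0 ± 0.11 to E11.5 (adjusted p = 2.2e-07) and by 0.66 ± 0.11 to E13.5 (adjusted p = 4.7e-05), together 1.66 ± 0.10 or 3.17-fold (adjusted p = 8.9e-12). Its second bright set rose by 0.93, 0.90 and 1.83 in the same comparisons.

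Cox5b, a zinc-binding subunit encoded at chr1:36691487-36693388, was lowest at E11.5. It ran from 11.74 to 12.22 at E9.5, with samples 13 and 15 the highest, read 11.40, 11.28, 11.30 and 11.19 at E11.5, and ran from 12.63 to 12.74 at E13.5. The rise from E11.5 to E13.5 was 1.39 ± 0.09 (2.61-fold, adjusted p = 1.2e-10), and all 4 of its bright sets rose there, by 0.75 to 1.39. The fall of 0.66 to E11.5 was not shared by all, since its second-brightest set read -0.07 and was not called.

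Cox4i1, the regulatory subunit of most tissues, was at 11.58 ± 0.09, 11.41 ± 0.04 and 12.13 ± 0.07. It rose by 0.73 ± 0.07 from E11.5 to E13.5 (adjusted p = 3.6e-08), and its small fall before that (-0.18, adjusted p = 0.0404) was lost without any of E9.5 samples 16, 19, 22 and 24, E11.5 samples 36, 51 and 52 or E13.5 samples B62E6K, B62E8K and B63E7K (-0.19 to -0.16). Cox6a1 differed by -0.02 and then rose by 0.70 ± 0.07 (adjusted p = 2.7e-08), and its second bright set rose by 1.15. Cox6b1 and Cox7a2 gave opposite calls on their 2 bright sets in both intervals. Over the whole span both sets of Cox6b1 were lower, by -0.20 and -0.40, the first a call that was lost without any of E9.5 samples 16, 19 and 22 or E13.5 samples B62E8K, B63E6K and B63E7K (-0.19 to -0.17), and both of Cox7a2 were higher, by 0.32 and 0.18. Cox5a and Cox6c were higher at E13.5 than at E9.5 on the brightest set, by 0.35 and 0.55, and lower on the second-brightest, by -0.24 and -0.31. Cox7a2l, a factor that joins complexes III and IV into supercomplexes, was 0.61 ± 0.08 higher at E13.5 than at E9.5 (adjusted p = 1.8e-06), and all 3 of its bright sets were higher.

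On their brightest probe sets, none of the 3 heart and muscle isoforms was called higher at E13.5 than at E11.5, where the muscle markers rose. The 10 markers had a median difference of 4.88 from E11.5 to E13.5, and their mean level ran from 4.29 to 4.46 on the E11.5 arrays and from 7.93 to 8.35 on the E13.5 arrays. Cox6a2 was at 5.61 ± 0.22, 6.56 ± 0.16 and 6.60 ± 0.33, with a rise of 0.96 ± 0.15 to E11.5 (adjusted p = 1.4e-05) and 0.03 after it (adjusted p = 0.861). Its second, dimmer probe set read -0.11 in the first interval, which was not called, and rose by 0.43 in the second. Cox7a1 ran from 3.70 to 4.52, 3.46 to 4.00 and 3.58 to 3.91, and Cox8b from 4.39 to 4.95, 4.00 to 4.32 and 4.17 to 4.75. Cox7a1 and Cox8b lay below an intensity of 32, the median of every array, throughout. The differences of Cox6a2, Cox7a1 and Cox8b between E11.5 and E13.5 were 0.03, 0.12 and 0.25.

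The lung isoform Cox4i2 stayed between 4.46 and 5.09 on all arrays and was called in no comparison. The testis isoforms Cox6b2 and Cox8c were at 6.45 ± 0.28 and 6.45 ± 0.26 at E9.5 and 0.68 and 0.57 higher at E13.5, and none of Cox6b2, Cox8c and Cox7b2 was called between E11.5 and E13.5 on its brightest set. The second, dimmer set of Cox8c rose there by 0.47. Levels of different genes are not compared here, since each probe set has its own response.

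**Figure D4:**
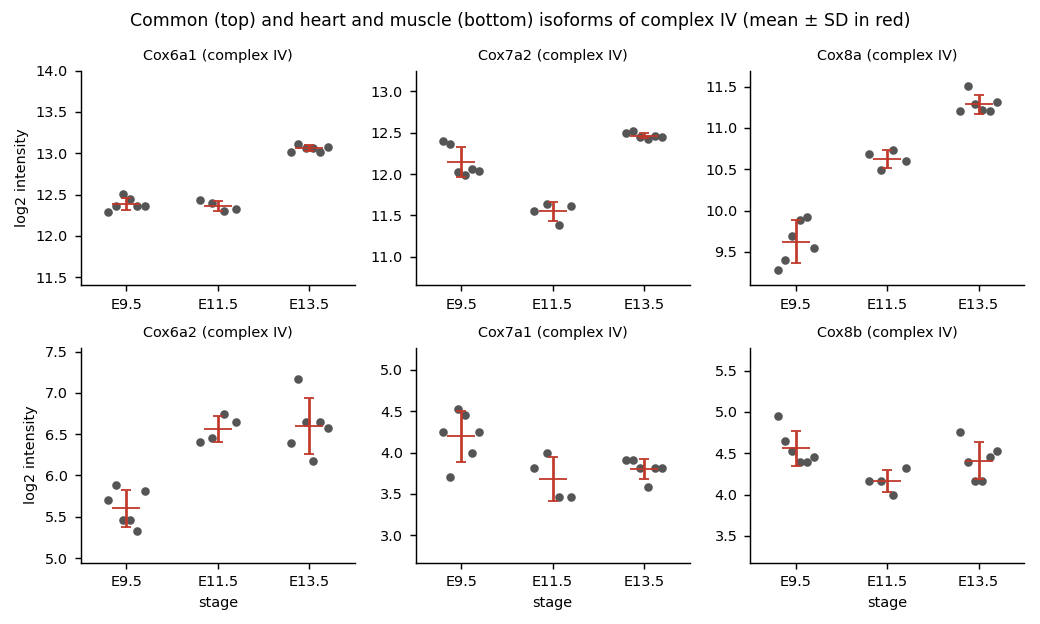
Log2 intensity (vertical axis) on each array of 3 common complex IV subunits (top) and the heart and muscle forms of the same subunits (bottom), each panel with its own range. Grey points are arrays and red bars the mean ± SD. Cox6a1, Cox7a2 and Cox8a stand higher at E13.5 than at E11.5, and the points of Cox6a2, Cox7a1 and Cox8b overlap between these stages.

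Complex V, the ATP synthase, had 10 genes higher and 4 lower at E11.5 than at E9.5 (31.0% and 26.9% of all genes). At E13.5, 9 were higher and 4 lower than at E11.5 (27.9% and 27.0% of all genes). Against E9.5, 11 were higher and 1 lower at E13.5 (32.7% and 29.1% of all genes). The medians were 0.34, 0.25 and 0.37, and the first was -0.01 on second-brightest sets. In the F1 head, where ATP is made, Atp5e, the epsilon subunit of the central stalk, encoded at chr2:174461075-174464101, rose at each step. It ran from 9.55 to 9.87 at E9.5 with a median of 9.66, read 10.27, 10.00, 10.06 and 9.94 at E11.5, and ran from 11.03 to 11.21 at E13.5 with a median of 11.13. The stages did not overlap, and the rise was 0.39 ± 0.08 (adjusted p = 0.00035) and then 1.06 ± 0.08 (adjusted p = 9e-10), together 1.45 ± 0.07 or 2.74-fold, on its single probe set.

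Among the other head subunits, Atp5b, the catalytic beta subunit, was at 11.95 ± 0.12, 11.94 ± 0.36 and 11.74 ± 0.05 and was called in no comparison. Its E11.5 arrays were the most spread, at 11.59, 12.11, 11.70 and 12.35, and the call against E9.5 (adjusted p = 0.0865) passed the threshold in 7 alternatives, with a lower level at E13.5. Atp5a1, the alpha subunit, was 0.19 ± 0.06 higher at E13.5 than at E9.5 on its brightest set and also higher on its second. From E11.5 to E13.5 these sets were called in opposite directions, the brightest by -0.21 (adjusted p = 0.013) and the second by 0.19. Atp5d rose on both of its bright sets from E11.5 to E13.5, the brightest by 0.52 ± 0.12. Atp5c1, the gamma subunit that turns inside the head, fell by 0.57 and rose by 0.94 ± 0.11 (adjusted p = 2.8e-07).

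The c-ring, which turns as protons pass, is encoded by 3 genes for 1 protein. Atp5g3 rose by 0.51 ± 0.07 to E11.5 and then differed by -0.01, while Atp5g1 fell by 0.50 and Atp5g2 by 0.32 to E11.5 and rose by 0.57 and 0.46 after it. At E13.5, Atp5g3 was 0.50 above E9.5 (adjusted p = 5.5e-07), and Atp5g1 and Atp5g2 were at 0.07 and 0.13 (adjusted p = 0.453 and 0.0864). The second-brightest sets of Atp5g1 and Atp5g2, both dim, were lower there, by -0.46 and -0.68, and so were the means of all their sets, by -0.20 and -0.16. Atp5g3 has 1 probe set.

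In the peripheral stalk, Atp5o differed by -0.04 and then rose by 0.80 ± 0.07 (adjusted p = 1.1e-08), and a second, dimmer set also rose, by 0.63, but was lower at E13.5 than at E9.5, by -0.75. Atp5h rose by 0.70 to E11.5 on its brightest set and fell by 0.58 on the second, and Atp5pb showed the same split. Among the membrane subunits, Atp5l rose in both intervals, by 0.57 and 0.42, and was 0.99 ± 0.08 higher at E13.5 than at E9.5. Atp5mpl, a small subunit of the membrane part, had the largest rise of the 80 genes to E11.5. It ran from 10.46 to 10.96 at E9.5, read 12.38, 12.47, 12.64 and 12.51 at E11.5, and ran from 11.56 to 11.81 at E13.5. The stages did not overlap, with E11.5 the highest. The rise was 1.75 ± 0.09 (3.36-fold, adjusted p = 6.3e-12) and the fall after it 0.86 (adjusted p = 1.4e-07), on 1 probe set.

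Other mitochondrial and energy genes were counted beside the subunits, from lists chosen with earlier results of these data known. Of all genes, 31.0% were called higher and 26.9% lower at E11.5 than at E9.5. The shares were 27.9% and 27.0% at E13.5 against E11.5, and 32.7% and 29.1% at E13.5 against E9.5. Between E9.5 and E11.5, 59 of 76 mitochondrial ribosomal proteins were lower and 7 higher, and 15 of 22 genes of the tricarboxylic acid cycle and pyruvate dehydrogenase were lower and 1 higher. From E11.5 to E13.5, 46 of the 76 mitochondrial ribosomal proteins rose and 13 fell, with a median of 0.38. At E13.5 against E9.5 the counts were 14 higher and 37 lower for the mitochondrial ribosomal proteins, 4 and 13 of 22 for the tricarboxylic acid cycle list, 4 and 14 of 22 for protein import, and 13 and 20 of 44 for assembly factors of the complexes. Their medians were -0.20, -0.38, -0.33 and -0.18, where the subunit genes had 0.41. Within assembly factors, Ttc19, which acts on complex III, was 1.63 higher and Cox15, which makes the heme of complex IV, differed by -1.77.

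Of 17 electron and nucleotide carriers, 7 rose and 0 fell from E11.5 to E13.5 (27.9% and 27.0% of all genes). From E9.5 to E11.5, 10 of the 17 had fallen and 2 had risen (26.9% and 31.0% of all genes). Slc25a4, which exchanges ADP and ATP across the inner membrane, rose by 0.91 ± 0.10, and Cyc1, the cytochrome c1 of complex III whose name the symbol rule does not take, by 0.58 ± 0.09. Cycs, cytochrome c itself, which was named after its values were seen, was lower at E13.5 than at E9.5, by -0.44 (adjusted p = 0.00067). The 1 measured gene of mitochondrial DNA, ND5 of complex I, was at 11.20, 10.99 and 11.61 and rose by 0.62 ± 0.14 from E11.5 to E13.5 (adjusted p = 0.00073).

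Of 20 regulators of mitochondrial gene expression, 2 were higher and 15 lower at E13.5 than at E9.5 (32.7% and 29.1% of all genes). The median was -0.65. At E11.5 against E9.5, 3 of the 20 were higher and 13 lower (31.0% and 26.9% of all genes). Ppargc1a, a coactivator known to drive mitochondrial biogenesis, read 3.42, 3.20 and 5.23 at the 3 stages and rose by 2.03 ± 0.12 from E11.5 to E13.5 (adjusted p = 1.3e-11), from mean levels below the lower quartile of intensity. Pprc1, a related coactivator, differed by -1.59 between E9.5 and E13.5, and Nrf1, whose motif was searched above, by -0.69, and both were called lower. In glycolysis, 3 of 18 genes rose and 14 fell from E9.5 to E11.5 (31.0% and 26.9% of all genes), with a median of -0.78. From E11.5 to E13.5, 8 rose and 6 fell (27.9% and 27.0% of all genes), with a median of 0.16. From E9.5 to E13.5, 6 of the 18 rose and 11 fell (32.7% and 29.1% of all genes), with a median of -0.99. Aldoc, the aldolase of brain, rose by 4.10 and Slc16a3, a lactate exporter, fell by 2.92.

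**Figure D5:**
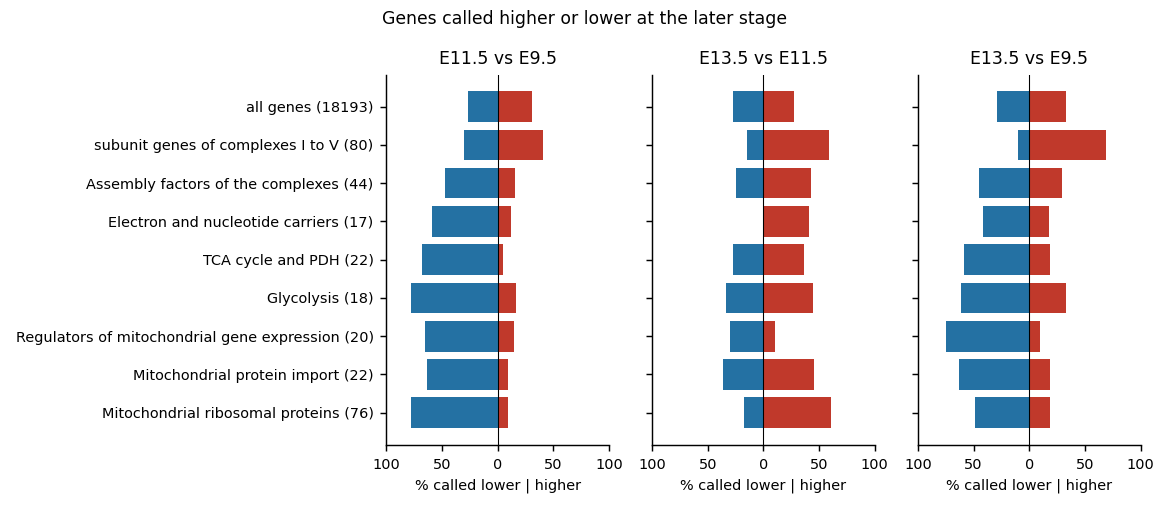
Share of measured genes called higher (red, right of 0) or lower (blue, left of 0) at the later stage, in percent, for all genes, the 80 subunit genes and 7 other lists, with a panel for each pair of stages and the number of genes measured in brackets. In the comparison of E13.5 with E9.5 the bar of the subunit genes reaches 55 of 80 on the higher side, and those of the 7 other lists are longer on the lower side.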

How the data were processed

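The deposited table gives 1 linear intensity per probe set and array, in whole numbers. The submitters' processing notes name RMA as the authors' method, with its version and settings not given in the sources used here. It sets all arrays to the same distribution, so a change is relative to other transcripts. The log2 of each value was taken. Of the probe sets, 34945 named 1 gene, 932 several (9 of them matching the symbol rule, not used), 9160 none, and 64 were controls. Matching RefSeq identifiers changed 0 of the platform's symbols.

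One limma model (version 3.58.1, R 4.3.3) held the 16 arrays, its p-values were adjusted over 18193 genes by the Benjamini-Hochberg method, and it was tested on simulated data first. Arrays have no read depth, and their number limits the precision. Errors are standard errors for differences and SD for levels.

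Members, lists and tests were chosen with earlier results of these data known, and subunit roles, motifs and the bright level of 9 after values were seen. The text names the 2 called members of each complex with the largest rise and fall per comparison, core subunits, all isoform families and up to 2 called genes per other list. Other members were named after their values were seen. Alternatives were quantile normalization, median centring, a pseudocount of 16, 3 other uses of probe sets, leaving out the 25% of genes with the lowest mean, a 1.5-fold threshold, fits of 2 stages, a trended and robust variance, array weights, the E13.5 title prefix as a random block or taken singly, and arrays left out. The mean of bright probe sets and single prefixes were added after the data were seen.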

Additional observations from a re-analysis of the deposited data

Results flagged for a closer look

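Among 150 groups of arrays (50 named members at 3 stages), 7 held an array far from the others of its stage by Dixon's test, where chance gives about 1 in 20. The E13.5 array B62E7K was the highest for Cox8a at 11.50 (next 11.31), Ndufs8 at 11.45 (next 11.19) and Uqcr11 at 10.21 (next 9.95), and it was the highest of its stage for 59 of 80 members. Without it, 1 call on a named member was lost, that of Cox7b2 between E9.5 and E11.5. Of the differences called with or without it, 0 changed sign, and changes of sign in differences called in neither fit were not counted. Atp5b was lowest in E9.5 sample 13 at 11.73 (next 11.95). Cox4i2 was highest in E11.5 sample 36 at 5.09 and lowest in E13.5 sample B63E7K at 4.52, and Cox7a1 was lowest in E13.5 sample B63E5K at 3.58. These 3 values lie near the dim end, where intensities step in whole numbers.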

How the results depend on the processing

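Counts of members kept within 1.5 times under the alternatives run, with these exceptions. With at least a 1.5-fold difference required, 10 were higher and 10 lower at E11.5 than at E9.5, 28 and 4 at E13.5 than at E11.5, and 30 and 3 at E13.5 than at E9.5. The lower count of E13.5 against E11.5 was 7 with the title prefix as a random block and 7 with prefix B62 alone. The lower count of E13.5 against E9.5 was 14 with median centring, 13 with the mean of all probe sets, 16 with second-brightest sets, 4 with the prefix block and 5 with prefix B62 alone. With prefix B63 alone, 43 were higher and 10 lower than at E11.5, and 48 and 6 than at E9.5. With 1 array left out the counts were 32 to 34 higher and 23 to 25 lower (E11.5 against E9.5), 47 to 48 and 10 to 12 (E13.5 against E11.5), 54 to 56 and 7 to 9 (E13.5 against E9.5), and 72 to 75 by the F test. The within-prefix correlation was 0.601. All 3 B62 arrays lay above all 3 B63 arrays for 7 of 80 members and below them for 0. Of all 18193 genes, they lay above for 895 and below for 690. The arrays of the prefixes did not overlap for 8.75% of members and 8.71% of all genes. The median of B62 minus B63 was 0.06 for members and 0.0007 for all genes.

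Of 3590 recomputed differences of named members, 142 lost the call, 36 gained one and 3364 kept their side of the threshold with no counted change of sign. A change of sign was counted only where the main or the recomputed difference was called. These were 48, all under other uses of probe sets, and the cause was not tested. Differences called in neither fit stand among the 3364 whether or not their sign changed. With the title prefix as a random block, calls were lost for Cox4i1 and Cox7b2 (E11.5 against E9.5), Cox5a, Ndufb7, Uqcrb and Uqcrc2 (E13.5 against E11.5), and Cox6b1, Cox7a1, Ndufb10, Ndufv1 and Sdha (E13.5 against E9.5). On second-brightest sets the differences from E9.5 to E11.5 were -0.58 for Atp5h, -0.14 for Cox5a, -0.11 for Cox6a2, -0.85 for Cox6b1, -0.44 for Cox6c, 0.56 for Cox7a2, -0.13 for Ndufa7, -1.04 for Ndufb6, 0.11 for Ndufv1, 0.29 for Sdha, 0.21 for Uqcrc2 and -0.021 for Uqcrq. From E11.5 to E13.5 they were 0.80 for Atp5pb, 0.46 for Cox6b1, -0.38 for Cox7a2, 0.073 for Cox7c, 0.47 for Cox8c, 0.90 for Ndufb7, 0.14 for Ndufb8, -0.73 for Sdha and 0.60 for Uqcrc2. From E9.5 to E13.5 they were -0.037 for Atp5c1, -0.46 for Atp5g1, -0.68 for Atp5g2, -0.75 for Atp5o, 0.18 for Atp5pb, -0.24 for Cox5a, -0.31 for Cox6c, 0.46 for Ndufa5, 0.15 for Sdhc and 0.81 for Uqcrc2. With the mean of all probe sets, the counted sign changes gave -0.067 for Cox6b1, -0.046 for Ndufb6 and -0.076 for Uqcrq in the first interval. In the second they gave 0.095 for Atp5pb, 0.31 for Ndufb7, -0.23 for Sdha and 0.18 for Uqcrc2, and over the whole span -0.20 for Atp5g1, -0.16 for Atp5g2 and -0.069 for Cox5a. With the mean of bright sets they were -0.067 for Cox6b1 and -0.046 for Ndufb6 in the first interval, 0.095 for Atp5pb, 0.31 for Ndufb7, -0.20 for Sdha and 0.18 for Uqcrc2 in the second, and -0.069 for Cox5a over the whole span. No paired analysis was possible because the stages share no replicate numbers in the labels. Leaving out the dimmest 25% of genes gave no value for the dim isoforms it removed.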
